A study of Mus musculus with 32 samples.

Results

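Scavenger and efferocytosis receptors are surface or secreted proteins with which phagocytes take up modified lipoproteins, haemoglobin complexes, microbes and dying cells. The members described here were 10 genes chosen by their symbols, Cd163, Mrc1, Marco, Msr1, Cd36, Vsig4, Mertk, Axl, Stab1 and Cd5l, out of 26560 genes in the RNA-seq table of Lin- cells and 25887 genes in that of CD11b+ cells. All 10 were in both tables. The rule that chose them used no measured value, but it was set with earlier results of these data known. Their IGF2BP3 binding sites were the eCLIP peaks whose name carries the Ensembl ID of the gene.

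The libraries came from mouse cells carrying the MLL-Af4 fusion, given by retrovirus, and no drug treatment was compared between them. Lin- cells were lineage-depleted bone marrow cells that were transduced, selected with G418 and grown in culture with cytokines. The CD11b+ cells of the RNA-seq were instead selected with magnetic beads from splenic tumours of leukemic recipient mice. For its transplants, the paper used fluorouracil-enriched marrow of female C57BL/6J or Igf2bp3-deleted donors and lethally irradiated female recipients. The paper gives the age of these donors and recipients. RNA-seq was made from 12 libraries, 3 of WT/MLL-Af4 and 3 of I3KO/MLL-Af4 in each cell type, where I3KO is a germline homozygous deletion of Igf2bp3 that arose through leaky Vav1-Cre activity. IGF2BP3 eCLIP, which crosslinks a protein to RNA, pulls it down with an antibody and sequences the attached RNA, was made from 6 libraries of Lin- cells (replicates 1 to 3 biological, 4 to 6 technical) and 4 libraries of CD11b+ cells (replicates 1 and 2 biological, 3 and 4 technical), all WT/MLL-Af4, with 10 size-matched inputs (smInput). The labels did not say which biological library a technical one repeats, from which tissue the CD11b+ eCLIP cells came, how old the mice were, or how many mice stood behind a library.

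The members differ in what they bind. CD163 takes up haemoglobin bound to haptoglobin, MRC1 (CD206) is a mannose receptor, MSR1, MARCO and CD36 bind modified lipoproteins and microbial surfaces, and STAB1 clears modified proteins and takes part in the uptake of dying cells. MERTK and AXL are receptor tyrosine kinases of the TAM family, which reach phosphatidylserine on a dying cell through the bridging ligands GAS6 and protein S. VSIG4 is a complement receptor of resident macrophages, and CD5L (AIM) is a protein secreted by macrophages that can itself bind to dying cells and to lipids. IGF2BP3 is an RNA-binding protein known to bind mRNAs, often in 3′ untranslated regions (3′UTRs), and to affect their stability and translation.

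The RNA-seq values were means of normalized counts over the 6 libraries of a cell type, both genotypes together. With no value per library, they had no error, no comparison of WT/MLL-Af4 with I3KO/MLL-Af4 was made here and the loss of Igf2bp3 was not checked per sample. Filtered peaks numbered 4040 to 10042 per Lin- eCLIP library and 7085 to 10054 per CD11b+ library, and the 10 inputs held 217 to 1885 peaks. The read depth of the eCLIP libraries was not given in the sources used here. Progenitor markers had a median percentile of 95.5 in the Lin- table and 67.6 in the CD11b+ table, and myeloid markers of 95.1 (5 of 6 markers in the table) and 93.8. Itgam itself, the gene of CD11b, had a mean of only 17.0 normalized counts in the CD11b+ table (percentile 30.4) and was not among the genes of the Lin- table. It shares 3450 exonic nt with the same-strand gene Gm49368, with a mean of 77.2 normalized counts in CD11b+ cells, and whether reads were split between them was not tested. Itgam carried 6, 8, 4 and 5 filtered eCLIP peaks in CD11b+ replicates 1 to 4 and 0 or 1 in each Lin- library. Neutrophil markers had a median percentile of 72.4 in Lin- and 92.0 in CD11b+ cells, while T cell (12.6 and 30.6) and endothelial markers (30.8 and 11.6) were low in both. Dendritic markers had a median percentile of 61.5 and 35.2, erythroid markers of 48.4 and 40.8, and B cell markers of 20.4 and 50.2.

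The order of RNA levels per kb differed between the cell types, with Axl first in Lin- and Cd163 first in CD11b+ cells. To compare genes, each mean was divided by the summed length of the gene's exons (normalized counts per kb), and a percentile is the share of genes of the same table with a lower level. In Lin- cells, Axl was the highest member with 260 normalized counts per kb (259.8; mean 1113, percentile 71.2) and Cd163 only the 8th with 8.57 (mean 38.5, percentile 38.6). In CD11b+ cells, Cd163 was the highest with 1350 normalized counts per kb (1349.67; mean 6056, percentile 94.4), and Axl was the 7th with 17.0 (mean 72.9, percentile 45.2). Without division by length, Stab1 came first in Lin- cells (mean 1757), followed by Axl, and Cd163 stayed first in CD11b+ cells. The tables were normalized separately, so levels were set across them by percentile only. In these bulk samples, fewer cells of a type and less RNA per cell cannot be told apart.

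The mannose receptor Mrc1 and the scavenger receptor Stab1 lay high in both tables. Stab1 was the 2nd member in each, with 220 normalized counts per kb (219.6; percentile 68.6) in Lin- and 167 (percentile 70.6) in CD11b+ cells. Mrc1 was the 3rd member in each, with 179 (percentile 65.9) and 111 (percentile 64.4). Of the TAM receptors, Mertk was the 5th member in Lin- cells with 98.2 normalized counts per kb (percentile 58.9) and the 4th in CD11b+ cells with 77.4 (percentile 59.8).

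Cd36 and Cd5l stood higher in Lin- than in CD11b+ cells within their tables. The fatty acid and lipoprotein receptor Cd36 had 97.6 normalized counts per kb (percentile 58.9) in Lin- and 3.93 (percentile 31.7) in CD11b+ cells. The secreted Cd5l had 165 (164.9; percentile 64.9) and 18.2 (percentile 45.8).

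The class A scavenger receptors Msr1 and Marco and the complement receptor Vsig4 were low in Lin- cells. Msr1 had 14.9 normalized counts per kb (percentile 43.3) in Lin- and 43.9 (percentile 53.6) in CD11b+ cells, and Marco 2.26 (percentile 26.2) and 12.4 (percentile 42.3). Vsig4 was last in both, with means of 0.331 (percentile 5.01) and 0.958 normalized counts (percentile 14.2). In total, 6 members in Lin- and 5 in CD11b+ cells lay above the median gene of their table, which had 35.2 and 30.0 normalized counts per kb (the latter 29.96), and the median member had percentiles of 58.9 and 49.7.

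**Figure D1:**
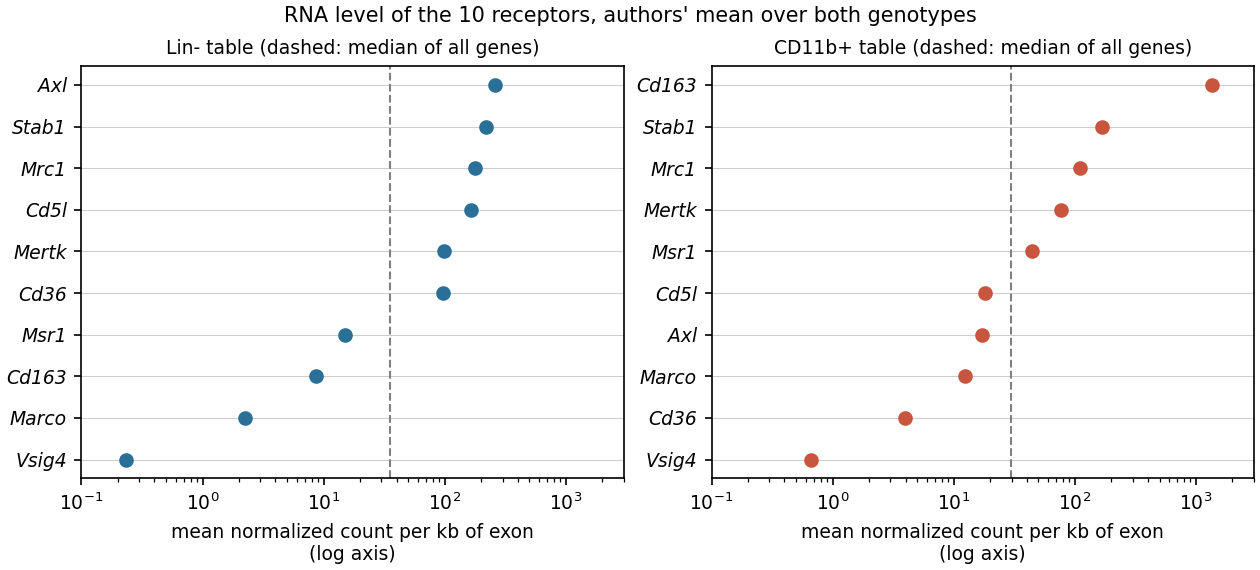
RNA level of each member in Lin- and CD11b+ cells, as the authors' mean normalized count over 6 libraries divided by exonic length (normalized counts per kb, log axis), with the median gene of each table dashed. Each point is a mean without error, and the 2 tables are not on a common scale, so only the order within a cell type can be read, with Axl first in Lin- and Cd163 first in CD11b+ cells.

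Markers of red pulp macrophages of the spleen, like Cd163, lay at higher percentiles in CD11b+ than in Lin- cells. Their median percentile was 49.0 in Lin- (range 29.6 to 84.0, 5 of 5 markers in the table) and 74.9 in CD11b+ cells (38.4 to 92.9). Their summed level was 808 normalized counts per kb in the Lin- and 1953 in the CD11b+ table, values that are not on a common scale. Vcam1, which these macrophages express, lay at percentile 49.0 in Lin- and 87.1 in CD11b+ cells, while their defining transcription factor Spic lay at 29.6 and 38.4. The CD11b+ cells had been selected on CD11b, of which red pulp macrophages carry little, and the part of such macrophages in the Cd163 level was not tested. Igf2bp3 itself had a mean of 2041 normalized counts in Lin- (percentile 80.7) and 1355 in CD11b+ cells (percentile 80.0), over both genotypes.

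Filtered IGF2BP3 peaks were found on 5 of the 10 members, and 21 of the 33 member peaks lay on Cd163. In Lin- cells, 4 of 10 members had a filtered peak in at least 1 library (Cd163, Cd36, Mertk and Stab1), beside 26.5% of all genes of the table. In CD11b+ cells, 5 of 10 had one (these and Mrc1), beside 25.6% of all genes. Peaks are found more often on genes with more RNA, and once genes averaging under 10 normalized counts were set aside, 4 of 8 members had a peak in Lin- and 5 of 9 in CD11b+ cells, beside 39.8% and 37.1% of all such genes. With 10 members, these shares are a description and carry no test. Leaving out CD11b+ replicate 1, with biological libraries alone, left 2 members with a peak in CD11b+ cells (Cd163 and Cd36).

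The peak number of the members varied more between CD11b+ than between Lin- libraries. Each of Lin- replicates 1 to 5 held 2 member peaks and replicate 6 held 0, while CD11b+ replicates 1 to 4 held 9, 2, 9 and 3. Per 10000 filtered peaks of the library, Lin- replicates 1 to 6 had 2.72, 1.99, 2.30, 4.95, 3.08 and 0 member peaks, and CD11b+ replicates 1 to 4 had 10.6, 1.99, 11.9 and 4.23. CD11b+ replicates 1 and 3 lay above every Lin- library, and CD11b+ replicates 2 and 4 lay within their range. Over biological libraries the means were 2.34 ± 0.364 (SD, n = 3) in Lin- and 6.28 ± 6.06 (SD, n = 2) in CD11b+ cells, a difference of 3.94 per 10000 that was smaller than the spread between the CD11b+ libraries. The exact permutation test gave a two-sided p of 0.4, where 3 against 2 libraries cannot give less than 0.1. Without CD11b+ replicate 1 the difference was -0.348, and without CD11b+ replicate 2 it was 8.22.

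**Figure D2:**
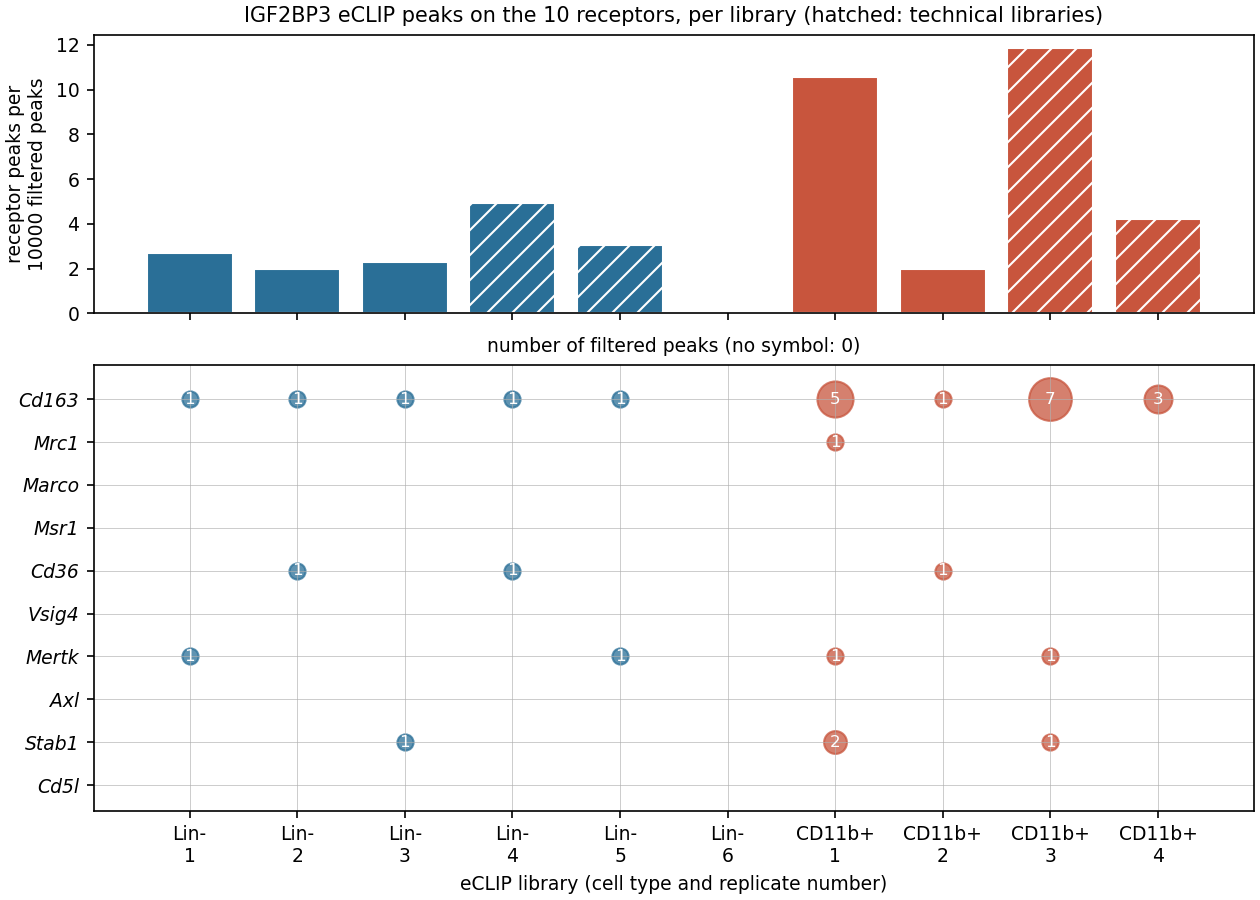
Filtered IGF2BP3 peaks on each member in each of the 10 eCLIP libraries. CD11b+ replicates 1 and 3 carry 9 member peaks each, and Cd163 has peaks in the most libraries, 9 of 10, of which 6 hold only its narrow intron 10 site.

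Of the 5 members with a peak in a biological library, 0 had more peaks per 10000 in every CD11b+ than in every Lin- biological library, beside 10.6% of all genes with such a peak. The smInput filter had removed 0 of the 33 member peaks, beside 10.8% (CD11b+ replicate 1) to 25.9% (Lin- replicate 4) of all peaks of a library. The inputs themselves held 3 member peaks, each away from the eCLIP peaks, of 4 reads on Mrc1 in CD11b+ replicate 3, of 3 reads on Msr1 in Lin- replicate 1 and of 6 reads on Cd36 in CD11b+ replicate 4. Reads of a peak were taken from the last number in its name, which the files do not describe. Overlapping peaks merged into 17 regions, of which 5 were seen in Lin- and 14 in CD11b+ cells, 2 in both and 11 in a single library. The 2 regions seen in both were the narrow Cd163 site in intron 10 and the Cd36 site. Such regions were not counted over all genes, so these numbers do not set the members apart.

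Cd163 (ENSMUSG00000008845, chr6:124304656-124330527, plus strand, mm10) carried 8 regions, 7 with their middle in an intron and 1 in the 3′UTR. CD163 is the haemoglobin-haptoglobin receptor of macrophages, and its peaks fell into a 3′UTR site, sites next to 3′ splice sites and a narrow intronic site. The sequences below, 5′ to 3′ on the sense strand, are shown because these sites were seen in the most libraries or had the most reads, with capitals for coding bases in the exon 15 site and for a 10-letter word, described below, in the intron 10 site.
Cd163 intron 2, chr6:124306939-124306990: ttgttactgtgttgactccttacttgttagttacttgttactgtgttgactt
Cd163 intron 10 with flanks, chr6:124319703-124319748: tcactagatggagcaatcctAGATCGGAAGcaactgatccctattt
Cd163 intron 14 into exon 15, chr6:124327857-124327906: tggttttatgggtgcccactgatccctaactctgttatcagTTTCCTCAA
Cd163 3′UTR around the summit, chr6:124330422-124330451: gaagtggggggaggtgaaaagctagttggg

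The 3′UTR site (chr6:124330355-124330469, exon 17) had the most reads of all member regions. It was seen only in CD11b+ replicates 1 (biological) and 3 (technical), and so in only 1 biological library. In replicate 1 it was split into adjoining peaks of 54 and 68 reads, and in replicate 3 into peaks of 38 and 62 reads. CLIPper gave p-values of 1.92e-60 and 3.18e-77 to the peaks of replicate 1, and 2.52e-39 and 8.94e-71 to those of replicate 3. CD11b+ replicates 2 and 4 had no filtered peak there, nor had any of the 6 Lin- libraries, in which the Cd163 mean was 38.5 normalized counts.

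The sites next to 3′ splice sites were also seen only in CD11b+ cells. The site at the end of intron 14, which in replicate 4 ran into 9 coding bases of exon 15, had 21, 13 and 5 reads in CD11b+ replicates 1, 3 and 4. The site in intron 2 ended 10 nt before its 3′ splice site and had 7, 5 and 4 reads in the same libraries. Another in intron 3 (chr6:124308904-124308933) also ended 10 nt before the splice site, with 4 reads in CD11b+ replicate 3 alone. The other 3 intronic sites, in introns 4, 12 and 16, had 3 to 6 reads in a single CD11b+ library each.

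The site in intron 10 (chr6:124319718-124319733) was the only Cd163 site of the Lin- cells and the most widely seen member region, in 7 of 10 libraries. It had 6, 37, 8, 3 and 11 reads in Lin- replicates 1 to 5, no peak in replicate 6, and 35 and 9 reads in CD11b+ replicates 2 and 4. Its peaks were 2 to 16 nt wide, against a median of 40 to 54 nt in the libraries. It lay 561 nt from the 5′ and 621 nt from the 3′ splice site of the intron. In 6 of the 7 libraries it was the only Cd163 site, the other sites were seen in 3 libraries (CD11b+ replicates 1, 3 and 4), and 0 Cd163 sites were seen in both CD11b+ biological libraries. The Lin- and CD11b+ read numbers overlapped, although the RNA level of Cd163 was the 8th in one and the 1st in the other.

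The word AGATCGGAAG lies just downstream of the shortest peak of this site, with 2 nt between them, and within its 16-nt peaks. Within 15 nt of a peak, the word was found for 117 of 10254 filtered peaks of at most 20 nt (1.14%), on 58 genes, but for 1 of 64124 wider peaks (0.00156%). The share was similar in Lin- (68 of 6568 narrow peaks) and CD11b+ cells (49 of 3686). It was the word of the printed window found for the most narrow peaks, and those that do not overlap it were found for at most 8. The common Illumina sequencing adapter begins with these letters, and this word was looked at after the peak values were seen. Its part in the intron 10 peaks was not tested. Without peaks of at most 20 nt, Cd163 had no peak in Lin- cells, 3 members had one there (Cd36, Mertk and Stab1), and the difference between cell types was 4.43 per 10000.

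**Figure D3:**
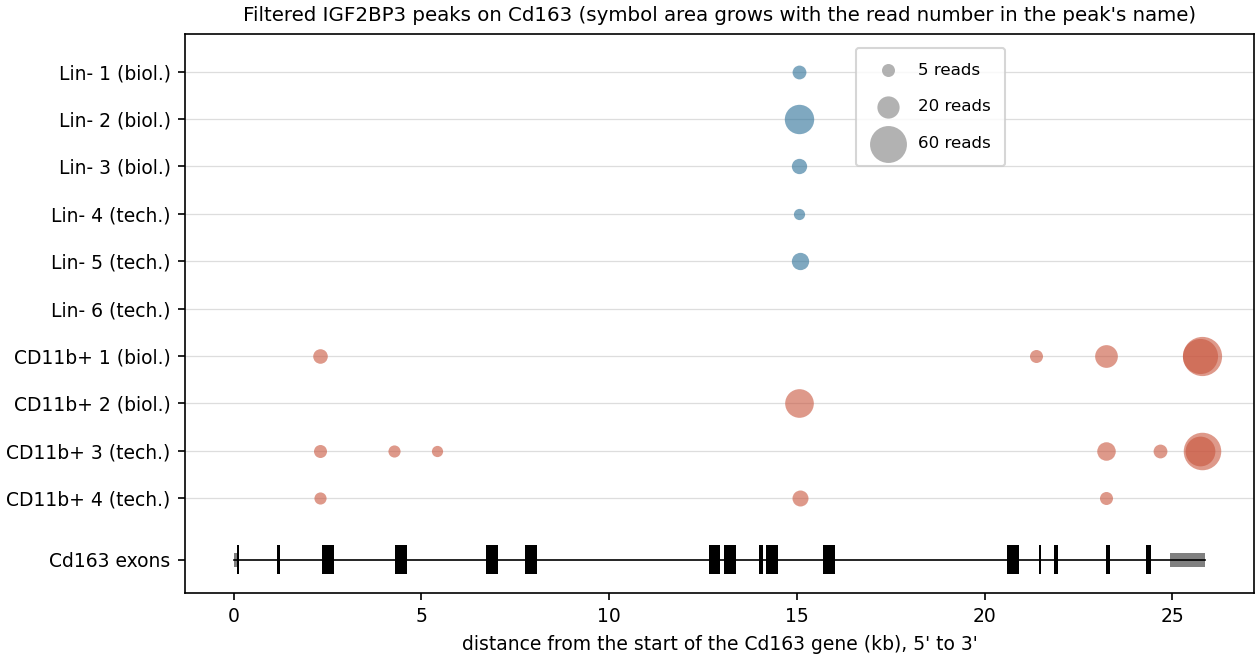
Filtered IGF2BP3 peaks along Cd163 in each eCLIP library, by distance from the gene's start in kb, with the exons at the bottom (thin boxes, untranslated). Symbol area grows with the reads of a peak, and the Lin- libraries share 1 narrow position while CD11b+ replicates 1 and 3 have their largest peaks in the 3′UTR.

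Cd36 and Mrc1 carried 1 region each, and both were intronic. Those sequences follow because they are the only IGF2BP3 sites of the genes, with capitals for the CA repeats CACACA or ACACAC, since IGF2BP proteins are known to bind CA-rich RNA.
Cd36 intron 4, chr5:17818115-17818145, minus strand: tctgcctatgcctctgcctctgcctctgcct
Mrc1 intron 9, chr2:14271979-14272087, plus strand: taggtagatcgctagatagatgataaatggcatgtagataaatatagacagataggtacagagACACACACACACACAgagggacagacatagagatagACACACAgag

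The Cd36 site (ENSMUSG00000002944) was seen in Lin- replicates 2 and 4 and in CD11b+ replicate 2, with 3 reads in each. It was 1 of the 2 member regions seen in both cell types, and its bases were wholly soft-masked, that is, marked as repeats in the genome. In CD11b+ cells Cd36 had a mean of 13.9 normalized counts, and 7.11% of the 1786 genes with a mean within 1.5-fold of it had a filtered peak. Mrc1 (ENSMUSG00000026712) had its peak, of 9 reads, only in CD11b+ replicate 1. In Lin- cells it had no peak at a mean of 962 normalized counts, where 50.8% of the 2997 genes of like mean had one.

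Stab1 (ENSMUSG00000042286, chr14:31139013-31168641, minus strand) carried 4 regions, each in a single library, and 2 of them reached a 3′ splice site. These 2 are shown, with the coding exon bases in capitals.
Stab1 intron 21, chr14:31155840-31155889: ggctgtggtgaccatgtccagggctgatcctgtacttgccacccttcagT
Stab1 intron 20, chr14:31157055-31157119: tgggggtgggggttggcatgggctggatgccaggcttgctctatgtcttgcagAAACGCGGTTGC

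They had 5 reads in CD11b+ replicate 1 and 6 reads in CD11b+ replicate 3. The other CD11b+ region, in intron 18, had 10 reads in replicate 1, and the only Lin- region, in intron 44, had 3 reads in replicate 3. CD11b+ replicates 2 and 4 had no Stab1 peak. Stab1 shares 112 exonic nt with Nt5dc2 on the opposite strand, and the RNA-seq was strand-specific.

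The TAM receptors differed from each other in that Mertk had peaks and Axl had none. Mertk (ENSMUSG00000014361, chr2:128698956-128802894, plus strand) carried 3 intronic regions, all wholly soft-masked. They are shown because each is a simple repeat of a different kind, with CACACA or ACACAC in capitals.
Mertk intron 6, chr2:128757804-128757859: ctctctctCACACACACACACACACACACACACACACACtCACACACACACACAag
Mertk intron 15, chr2:128789882-128789920: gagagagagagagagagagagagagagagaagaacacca
Mertk intron 16, chr2:128792523-128792659: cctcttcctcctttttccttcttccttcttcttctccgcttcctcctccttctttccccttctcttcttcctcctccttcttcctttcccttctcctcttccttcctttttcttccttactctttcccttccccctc

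The intron 16 site had 19 reads in CD11b+ replicate 1 and 10 in replicate 3, and 98.5% of its bases were C or T. The CA repeat in intron 6 had 3 reads in Lin- replicate 5, and the GA repeat in intron 15 had 3 reads in Lin- replicate 1. No Mertk region was seen in both cell types. Axl (ENSMUSG00000002602, chr7:25757273-25788705, minus strand) had no peak in any of the 10 eCLIP libraries or 10 inputs. In Lin- cells, where Axl was the highest member by level per kb, 56.0% of the 3087 genes of like mean had a filtered peak. In CD11b+ cells 12.7% of the 1500 genes of like mean had one. A gene without a peak had none that passed the caller at a depth that is not known, which does not show that IGF2BP3 was absent from its RNA.

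The other members had no filtered eCLIP peak in any library. Marco (ENSMUSG00000026390), Vsig4 (ENSMUSG00000044206) and Cd5l (ENSMUSG00000015854) had no input peak either, whereas Msr1 (ENSMUSG00000025044) had the 1 input peak named above. Among genes with a mean like theirs, 5.50% (Marco), 2.42% (Vsig4), 22.2% (Cd5l) and 7.28% (Msr1) had a peak in Lin- cells. The same shares in CD11b+ cells came to 8.71%, 5.62%, 10.6% and 21.04%. Most genes at the level of these 4 members were thus without a peak.

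Of the 17 member regions, 16 had their middle in an intron and 5 lay within 50 nt of a 3′ splice site, 3 on Cd163 and 2 on Stab1. Intronic bases were held by 10 of 10 Lin- and 19 of 23 CD11b+ member peaks (82.6%), beside 75.4% and 84.7% of all peaks. Counted as peaks, 9 of the 19 CD11b+ member peaks with intronic bases lay within 50 nt of a 3′ splice site (47.4%), beside 12.0% of all such CD11b+ peaks. In Lin- cells it was 0 of 10, beside 49.3% of all such Lin- peaks. The 9 peaks belonged to 5 sites and came from CD11b+ replicates 1, 3 and 4, so they are not independent. Neither are the 10 Lin- peaks, which belonged to 5 regions. Of these peaks, 5 were at the narrow Cd163 site in intron 10, and the others had 3 reads each. CACACA or ACACAC was held by 2 of the 17 regions (Mrc1 and Mertk intron 6), beside 8.25% of all filtered Lin- and 16.4% of all filtered CD11b+ peaks. Soft-masked bases made up 29.7% of the bases of all filtered Lin- peaks and 64.0% of those of CD11b+ peaks, and 6 of the 17 member regions were wholly soft-masked, while 7 held no such base. The regions were merged over libraries of both cell types, while the shares of all peaks count single peaks or bases, so the units differ.

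Beyond the members, 45 genes of the same pathways were counted in 5 lists, also chosen with earlier results of these data known. The list of the engulfment machinery holds regulators of the phagocyte's actin cytoskeleton, but also Gulp1, Abca1 and Abca7. It had a filtered peak on 9 of 10 genes in each cell type. Signals on the prey cell and their receptor had one on 3 of 4 in each, other scavenger receptors on 5 of 14 in Lin- and 5 of 12 in CD11b+ cells, other receptors for dying cells on 4 of 8 and 2 of 9, and bridging molecules on 3 of 8 and 1 of 8. In total 24 of 44 genes in the Lin- table (54.5%) and 20 of 43 in the CD11b+ table (46.5%) had a peak. Leaving aside genes averaging under 10 normalized counts, it was 23 of 40 (57.5%) and 20 of 38 (52.6%), beside the 39.8% and 37.1% of all such genes given above. The genes of the engulfment list lay at percentiles from 43.7 (Dock1) to 98.4 (Rac2) of the Lin- table, and no test was made of the lists. All of them but Dock1 and Gulp1 had Lin- means above 1757 normalized counts, the mean of Stab1. Among genes of a mean like that of Stab1, 71.6% had a filtered peak in Lin- cells. In CD11b+ cells, 71.2% of genes with a mean like that of Cd163 (6056) had one.

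Peak numbers in the biological libraries, not adjusted for gene length, are given for single genes of the lists. Dock2, the Rac activator of leukocytes, had 103 peaks in the 2 CD11b+ and 14 in the 3 Lin- biological libraries, at similar percentiles of RNA level (93.7 and 93.0). Elmo1, its partner, had 17 and 25, and the small GTPases followed with 12 on Rac2 in CD11b+ and 6 on Rac1 in Lin- cells. Counting technical libraries too, Rac2 also had a peak in 6 Lin- libraries and Rac1 in 3 CD11b+ libraries. Of the signals, Cd47, which protects a cell from uptake, had 9 peaks in CD11b+ and 19 in Lin- libraries, and its receptor Sirpa had 21 and 3. Calr, the chaperone that promotes uptake when it is at the cell surface, had 3 and 17. Of the receptors that are not members, the endocytic receptor Lrp1 had 13, Scarb1 7 and Colec12 4 peaks in CD11b+ libraries, while Scarb1, Scarb2 and Ager had 2 each in Lin- libraries. Scarb2 also had a peak in 3 CD11b+ libraries, technical ones counted. The phosphatidylserine-binding Cd300lf had 6 and 4, and the integrin subunit Itgb3 had 2 in Lin- libraries. Of the bridging molecules, Thbs1 had 5 and Mfge8 2 in Lin- libraries. By comparison, Cd163 had 6 peaks in the CD11b+ and 3 in the Lin- biological libraries, the most of the members.

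**Figure D4:**
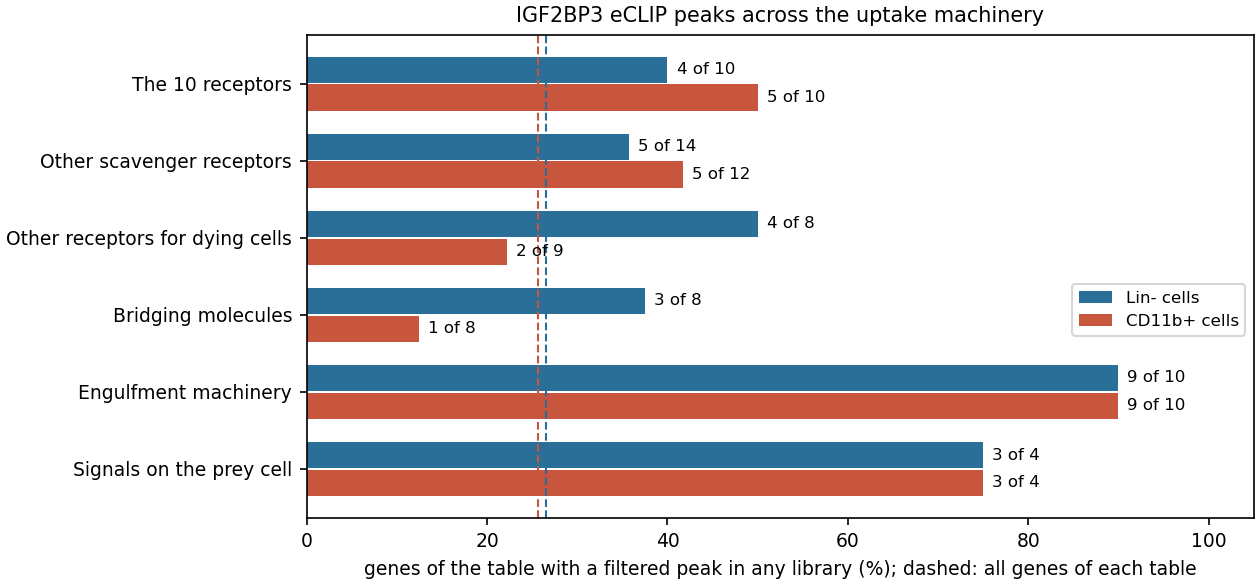
Share of the genes of each list with a filtered IGF2BP3 peak in Lin- and CD11b+ cells, in percent, for the members and the 5 pathway lists, beside the share over all genes of each table (26.5% and 25.6%). The engulfment machinery stands at 9 of 10 genes in both cell types and the members at 4 and 5 of 10. The shares over all genes are not matched for RNA level, and peaks are found more often on genes with more RNA.

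Across the 10 libraries, the genes whose peaks per 10000 were most like those of Cd163 were Plekhg5 (Pearson's r = 0.93), Gsr (r = 0.92) and Pld4 (r = 0.90), out of 696 genes compared. Each had its highest peak numbers in CD11b+ replicates 1 and 3, with 14 and 15 peaks on Plekhg5, 8 and 8 on Gsr and 7 and 8 on Pld4. The genes most like Mertk were Lrwd1, Secisbp2 and Vrk2 (r = 0.90 each, out of 4106 genes), but with only 4 peaks on Mertk this likeness rests on which 4 libraries held a peak. The points share their libraries, technical repeats included, and these values are a description.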

How the data were processed

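The members and all gene lists were chosen with earlier results of these data known. For RNA-seq, the authors mapped strand-specific single-end reads to mm10 with STAR 2.5.3a, masked repeats and normalized with DESeq2. The deposited value used here is a signal, namely each gene's normalized count averaged over 6 libraries per cell type. The same deposited tables hold the authors' genotype comparison (log2 fold changes, standard errors, p-values), which was not used. For eCLIP, the authors ran CLIPper on each library and filtered the peaks against smInput. The number deposited beside each peak carries no heading and was taken to be a CLIPper p-value.

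Exons, introns and lengths came from GENCODE M21 (GRCm38, the build of mm10). Coordinates are counted from 1. Sequences were read from the GRCm38 genome of RefSeq. Peaks were joined to genes by Ensembl ID and divided by the filtered peaks of the library, times 10000. Only biological libraries counted as replicates, and the labels do not say whether these came from separate mice, so a p-value measures only the spread between libraries. The test was an exact two-sided permutation test over libraries, checked on simulated data. From the pathway lists, genes with a filtered peak in at least 2 biological libraries were named, at most 3 per list and cell type by peak number. For members with peaks in at least 4 libraries, the 3 genes with the most similar peak numbers were named. Python 3.11.15, NumPy 2.4.6 and matplotlib 3.10.9 were used.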

Additional observations from a re-analysis of the deposited data

Results flagged for a closer look

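Of 11 groups of 4 or 6 libraries, for single members with a peak and for all members together, 3 held a library that stood apart from the others by Dixon's test. Stab1 had 1.15 filtered peaks per 10000 in Lin- replicate 3 and 0 in the other 5 Lin- libraries. Mrc1 had 1.17 in CD11b+ replicate 1 and 0 in the other 3 CD11b+ libraries. Cd36 had 0.995 in CD11b+ replicate 2 and 0 in the other 3. Each of these values is a single peak, and any group with peaks in 1 library alone meets the test, so its usual chance rate of about 1 in 20 groups does not apply to these counts. The groups also mix biological and technical libraries.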

How the results depend on the processing

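The CD11b+ minus Lin- difference in member peaks per 10000 (3.94) kept its direction in 14 of 15 alternatives, with an exact p above 0.05 in each, but only the one over all libraries could have given less. With 1 library left out it ran from -0.348 (without CD11b+ replicate 1, the only reversal) to 8.22 (without CD11b+ replicate 2). With the replicate block, in which biological replicates 1 and 2 were paired across cell types, it was 3.92 (exact sign-flip p = 1, smallest possible 0.5). The labels give these libraries only the same numbers, and 2 pairs cannot show a pairing. It was 1.68 without Cd163 and 4.66 over all 10 libraries (exact permutation p = 0.0571), whose technical repeats are not independent.

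The number of members with a peak in Lin- cells (4) fell to 1, Cd163, when a peak was needed in at least 2 biological libraries, at a CLIPper p below 0.001, or without peaks of at most 3 reads, the last chosen after seeing the data. All Lin- Cd163 peaks were at the narrow site in intron 10, and without peaks of at most 20 nt Cd163 had none in Lin- cells. With biological libraries alone and 1 of them left out, the number of members with a peak was 3 each time. In CD11b+ cells (5) it fell to 1 (at least 2 biological libraries; Cd163, at different sites in each), to 2 without CD11b+ replicates 1 and 3 (chosen after seeing the data), and ran from 2 to 4 with 1 biological library left out. Counted in places changed, the order of RNA levels moved by 5 (Lin-) and 2 (CD11b+) members when means were not divided by length, and by 2 (Lin-, Cd36 and Mertk) with the longest transcript. Without division by length, Stab1 took the first place of Axl in Lin- cells. The cause of these changes was not tested. The other alternatives left counts within 1.5 times. Unknown eCLIP read depth and few biological libraries limit all peak counts, and the RNA levels have no error.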
